A study of Danio rerio with 6 samples.

Results

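The genes described here encode the proteins of the cytosolic ribosome of the zebrafish embryo. They were chosen by a rule on symbols, with earlier results of these data known. The rule took rows named rpl or rps followed by a number with at most a closing letter or hyphenated suffix. It also took rows beginning rplp0, rplp1 or rplp2, and rpsa, and left out the rps6k kinases. This gave 80 of 32571 rows, of which 47 belong to the large subunit and 33 to the small one. The RNA came from whole AB embryos in pools of 40 to 50, sequenced as total RNA after removal of ribosomal RNA. One control was collected 2 hours after fertilisation (2 hpf), when embryos live on RNA from the egg, and another at 6 hpf, when the embryonic genome is active. The other 6 hpf groups were miR-430 MO, CNOT7-DN and amanitin embryos and control B. The miR-430 MO embryos were injected with a morpholino that blocks the microRNA miR-430. CNOT7-DN embryos were injected with a dominant negative (DN) form of the deadenylase CNOT7. Amanitin embryos were injected with alpha-amanitin against RNA polymerase II, and control B was the control of the amanitin experiment. No source used here says whether controls were injected. Triplicates are stated for all groups, but the table analysed here holds 1 value per group and gene, so the values below carry no SD.

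Each ribosome joins a small subunit, which decodes the mRNA, to a large subunit, which forms peptide bonds. The proteins are needed in equal numbers, apart from the stalk proteins, which stand in several copies and recruit the elongation factors. In vertebrates the mRNAs of ribosomal proteins begin with a tract of pyrimidines (the TOP motif), through which their translation is controlled as a group. The egg carries a large store of ribosomes and of these mRNAs, and the genes are among the most highly transcribed in growing cells.

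The stage and treatment labels were checked against egg and zygotic genes. The 11 rows of zygotic genes had a median of 0.278 FPKM (fragments scaled to gene length and to the library) at 2 hpf, between 235 and 314 in the groups at 6 hpf other than amanitin, and 0.469 in amanitin. The 8 egg genes had a median of 353 FPKM at 2 hpf and of 26.6 to 62.6 in the 6 hpf groups. Of these, tdrd6 was not lower in every group, with 177 FPKM at 2 hpf, 180 in miR-430 MO and 239 in amanitin. The other egg genes lay below their 2 hpf value in every 6 hpf group. The cnot7 row held 12850 FPKM in CNOT7-DN, which is 1.26% of all FPKM there, and 0.000714% in control 6 hpf, and injected sequence cannot be told apart there from the embryo's own RNA. FPKM measures a share of the RNA sequenced, and the median gene was displaced by -0.47 (log2) from 2 to 6 hpf and by 0.12 with amanitin against control B. In whole embryos, a different number of expressing cells and a different amount of RNA per cell cannot be told apart.

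Of the 80 rows, 69 had a symbol in a reference list of gene IDs, and 68 of those symbols named a ribosomal protein. The exception was the rpl37 row on chromosome 2 (ENSDARG00000076360), which that list names COA1, a gene for a mitochondrial protein. That row held 17.6 FPKM at 2 hpf and 20 with amanitin, against 15.9 (control 6 hpf), 14.3 (control B), 13 (miR-430 MO) and 11.5 (CNOT7-DN). Its values are low and close together in all groups, unlike those of the other rpl37 row on chromosome 21. That row (ENSDARG00000034291) held 129 FPKM at 2 hpf and 113 with amanitin, against 389 (control 6 hpf), 366 (control B), 402 (miR-430 MO) and 355 (CNOT7-DN). The symbol rps20 also stood on 2 rows, both at the locus on chromosome 7 from 59990937 to 59995522 (Zv9, as the table gives it). One of them was listed at 0 in 4 groups, and it had 23.2 FPKM for control 6 hpf and 18.9 for miR-430 MO. It was tested in no comparison, and reads could have been split between the 2 rows. Without a reference symbol were 11 members, among them that rps20 row, RPL37A, rpl24, rpl36 and rplp2. Their identity was not checked beyond the symbol.

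Ribosomal protein mRNAs were abundant in every group and lower at 2 hpf and with amanitin than elsewhere. The median member stood at 179 FPKM at 2 hpf and 173 with amanitin, against 352 (control 6 hpf), 358 (control B), 351 (miR-430 MO) and 316 (CNOT7-DN). Amanitin embryos and 2 hpf embryos were thus low, and the other groups high. As a share of all FPKM the members held 2.13% at 2 hpf and 2.02% with amanitin, against 2.74% (control 6 hpf), 2.94% (control B), 2.77% (miR-430 MO) and 2.47% (CNOT7-DN). The share was highest in control B and lowest in amanitin, and CNOT7-DN lay below both 6 hpf controls. In control 6 hpf 74 of the 80 rows ranked among the 1000 highest of the table, against 62 at 2 hpf and 59 in amanitin. In control 6 hpf the median was 344 FPKM for large subunit genes and 365 for small subunit genes, and with amanitin it was 176 and 171.

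Levels differed widely between single members. The 90th percentile of members was 3.02 times the 10th in control 6 hpf and 2.91 times in control B, 5.73 times at 2 hpf and 7.68 times in amanitin. The spread between members was therefore narrowest in the 6 hpf groups with active transcription. Of all members RPL29, rpl12 and rps14 had the highest mean level. RPL29 held 437 FPKM at 2 hpf and 527 with amanitin, against 689 (control 6 hpf), 712 (control B), 715 (miR-430 MO) and 658 (CNOT7-DN). The chromosome 2 row of rpl37 and the second rps20 row, given above, were among the lowest. The order of members was similar between the 6 hpf controls (Spearman's rho 0.97 over 80 rows, which share gene models and lengths) and less so between control B and amanitin (0.76).

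**Figure D1:**
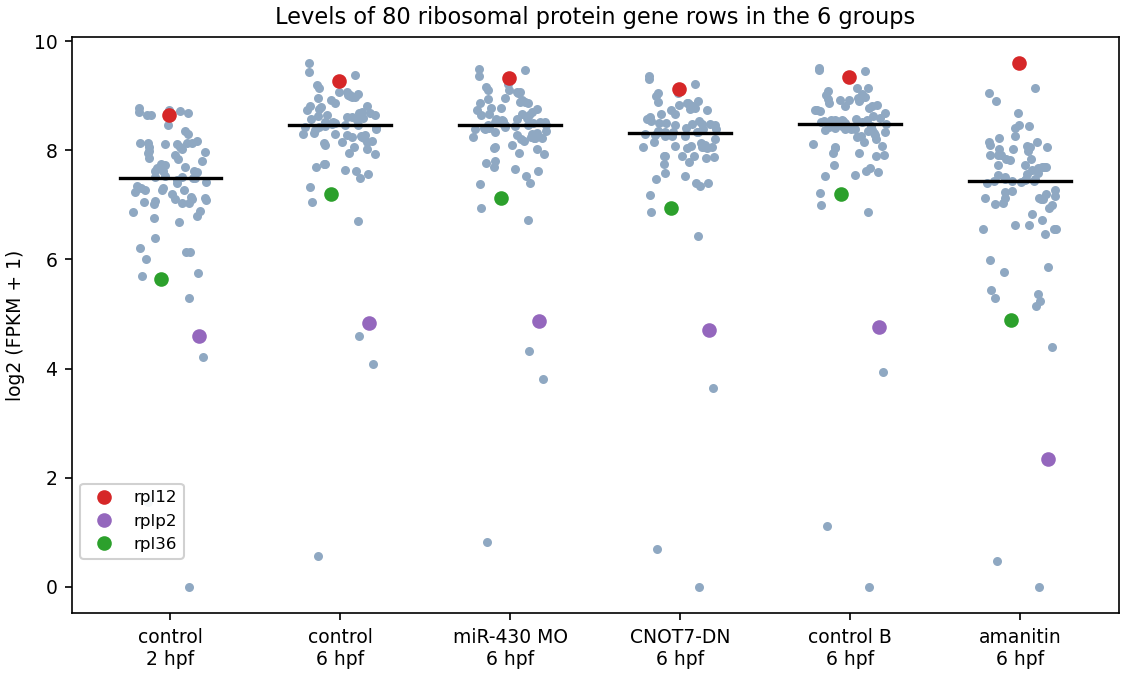
Levels of the 80 ribosomal protein rows in the 6 groups, as log2 of (FPKM + 1), with 1 point per row and the median as a bar. The medians lie lower at 2 hpf and in amanitin than in the other groups, rpl12 is the highest point in amanitin, and rplp2 and rpl36 lie low there.

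From 2 to 6 hpf nearly all ribosomal protein genes rose. By the authors' deposited table, 74 of 79 tested members rose and 1 fell at q under 0.05, where 20.8% of all tested genes rose and 51.7% fell (72.5% either way). The median member rose by 0.95 in log2 of the ratio of FPKM + 1, while the median of all 16333 rows considered (those at 1 FPKM or more in either group) was -0.47. Large subunit genes had a median of 0.94 and small subunit genes of 1.01. At least 2-fold higher were 36 members, against 18.6% of all rows, and 0 were 2-fold lower, against 29.9%. Rescaled to equal sums the median was 0.45, with 69 of 80 members above 0, against 25.9% of all rows. Centred on the median gene it was 1.42, with 79 above 0, against 50% of all rows. The count of members 2-fold apart was 8 with equal sums (7 higher and 1 lower) and 69 when centred. The shares of all rows 2-fold apart at these scalings were not computed.

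The largest rises belonged to 3 small subunit genes and 1 large subunit gene. The gene rps15a held 53.1 FPKM at 2 hpf and 57.4 with amanitin, against 189 (control 6 hpf), 193 (control B), 197 (miR-430 MO) and 169 (CNOT7-DN). The gene rpl30, whose protein binds a kink-turn in RNA, held 118 FPKM at 2 hpf and 123 with amanitin, against 410 (control 6 hpf), 386 (control B), 364 (miR-430 MO) and 354 (CNOT7-DN). Both show the common pattern of the members, low at 2 hpf and in amanitin and high elsewhere. Likewise rps26l rose from 63.1 to 205 FPKM and rps21 from 130 to 411. Their log2 ratios were 1.81 for rps15a, 1.79 for rpl30, 1.68 for rps26l and 1.65 for rps21, each with q = 0.0001 in the authors' deposited table. That is the smallest q of any tested gene in this comparison.

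A few members were not called as higher at 6 hpf. The large subunit gene rpl19 held 408 FPKM at 2 hpf and 349.6 in control 6 hpf (q = 0.0681 in the authors' deposited table). RPL37A stood at 397 and 441 FPKM (the authors' deposited table gives q = 0.699), the stalk gene rplp2 at 23.3 and 27.4 (q = 0.205) and the chromosome 2 row of rpl37 at 17.6 and 15.9 (q = 0.654). RPL37A shares a locus of the table with 14 other rows, and whether this affects its value was not tested. At 2 hpf rpl19 and RPL37A were thus among the highest members, and in control 6 hpf they were near or moderately above the median member.

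With transcription blocked, ribosomal protein genes were low against control B. By the authors' deposited table, 70 of 78 tested members fell and 1 rose, where 29.2% of all tested genes fell and 41.6% rose (70.8% either way). The median member stood at -1.09 (log2 ratio of FPKM + 1) and the median of all 16114 rows considered at 0.12. At least 2-fold lower were 44 members, against 28.7% of all rows, and 0 were 2-fold higher, against 20.5%. The median member kept 46.8% of its FPKM in control B, with 10% of members under 28% and 10% over 75.2%. The median was -0.73 after rescaling to equal sums, with 72 of 79 members below 0, against 40.3% of all rows. It was -1.21 when centred on the median gene, with 76 below 0, against 50% of all rows. With equal sums 24 members were 2-fold lower, and the share of all rows at that scaling was not computed.

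The lowest members relative to control B were rpl35a, rpl36 and the stalk genes rplp1 and rplp2. The gene rpl35a held 69.4 FPKM at 2 hpf and 34.5 with amanitin, against 195 (control 6 hpf), 194.5 (control B), 184 (miR-430 MO) and 169 (CNOT7-DN). The gene rplp1 held 69.4 FPKM at 2 hpf and 36.8 with amanitin, against 178 (control 6 hpf), 204 (control B), 167 (miR-430 MO) and 162 (CNOT7-DN). The gene rpl36 held 48.8 FPKM at 2 hpf and 28.7 with amanitin, against 146 (control 6 hpf), 146 (control B), 139 (miR-430 MO) and 123 (CNOT7-DN). In all 3 genes the amanitin value was the lowest of the 6, below 2 hpf as well. Their log2 ratios to control B were -2.46, -2.44 and -2.30, and that of rplp2 was -2.41, each with q = 0.000105 in the authors' deposited table.

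One member rose against control B, and others missed the call. The gene rpl12 (ENSDARG00000006691, chromosome 5, 34500585 to 34504918 on Zv9), whose protein sits at the base of the stalk, held 399 FPKM at 2 hpf and 774 with amanitin, against 614 (control 6 hpf), 647 (control B), 643 (miR-430 MO) and 553 (CNOT7-DN). Its amanitin value was the highest of the 6 groups and of all members in amanitin. The log2 ratio to control B was 0.26 (q = 0.0451 in the authors' deposited table), at 0.01 it would not be called, and against control 6 hpf the value was likewise higher. Its locus holds 3 further rows of small nucleolar RNAs. The large subunit gene rpl18 stood at 336 FPKM for control B and 340 for amanitin (q = 0.891 in the authors' deposited table). The small subunit gene rps20 stood at 515 and 477 FPKM (the authors' deposited table gives q = 0.394), and rps26 at 237 and 205 (q = 0.193). Not called either were rpl24, at 265 and 181 FPKM (the authors' deposited table gives q = 0.0591), RPL37A, at 377 and 240 (q = 0.255), and the chromosome 2 row of rpl37, at 14.3 and 20 (q = 0.103). The second rps20 row, at 0 in both, was not tested.

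**Figure D2:**
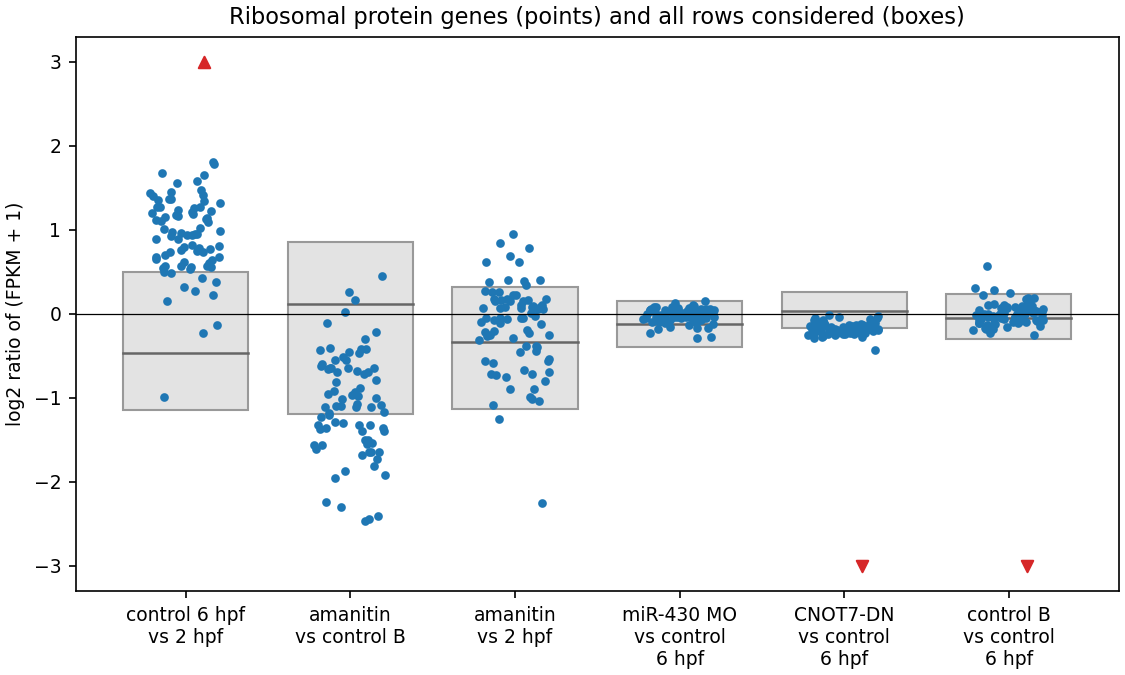
Log2 ratios of (FPKM + 1) of ribosomal protein rows at 1 FPKM or more in either group (points) in 6 comparisons, with boxes from the 25th to the 75th percentile of all rows considered and their median as a line. Red triangles mark the second rps20 row, which lies beyond the axis. Members lie mostly above the box from 2 to 6 hpf, mostly in its lower part or below it with amanitin against control B, and in a narrow band in the last 3 comparisons.

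Members with larger log2 ratios from 2 to 6 hpf tended to be lower in amanitin against control B, 2 comparisons with no group in common. Control 6 hpf is the numerator of the first ratio, and control B, of the same stage, is the denominator of the second. Over the 80 rows Spearman's rho was -0.55 and Pearson's r -0.28. Over the 77 rows at 10 FPKM or more in every group, a limit chosen after the values were seen, they were both -0.66. Over the other 15363 rows considered in both comparisons, without the limit of 10 FPKM, rho was -0.65 and r -0.81. The relation is thus not particular to the members. The points share gene models and lengths. Departing from it were rplp2 and rpl22, which had small or moderate log2 ratios to 6 hpf (0.23 and 0.73) and low ones with amanitin (-2.41 and -1.95). The gene rps14 went the other way, with 1.02 and -0.30 (q = 0.0001 and 0.0246 in the authors' deposited table). It held 328 FPKM at 2 hpf and 565 with amanitin, against 667 (control 6 hpf), 696 (control B), 710 (miR-430 MO) and 590 (CNOT7-DN).

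**Figure D3:**
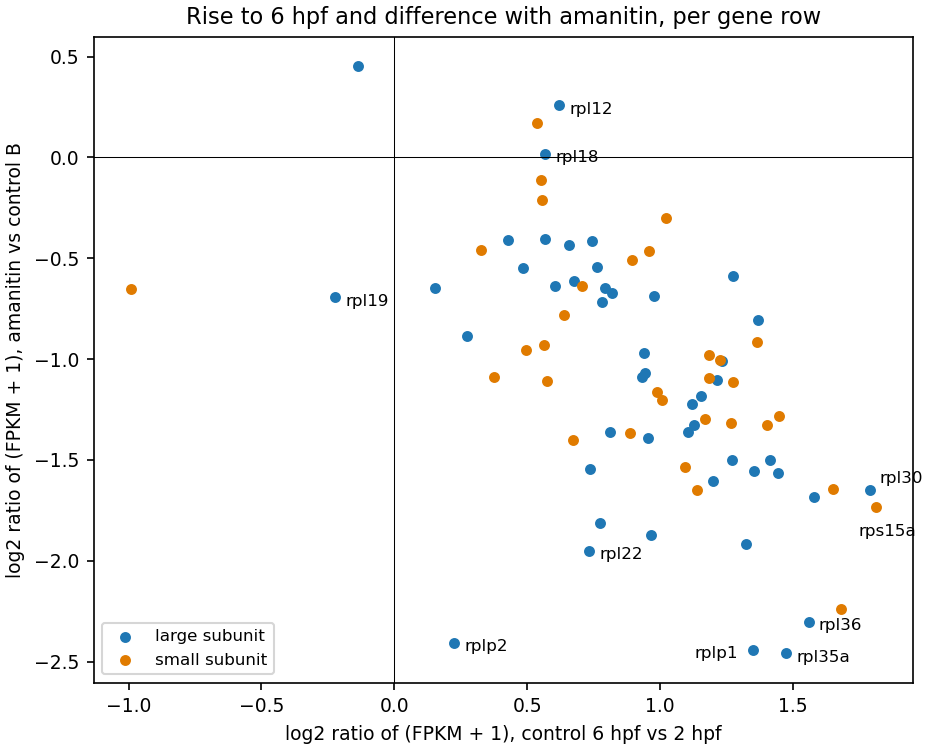
Log2 ratio of (FPKM + 1) of amanitin to control B (vertical) against that of control 6 hpf to 2 hpf (horizontal), with 1 point per row, coloured by subunit and without the second rps20 row. Points run from upper left to lower right, with rpl12 and rpl18 at or above 0 on the vertical axis and rpl35a, rplp1, rplp2 and rpl36 lowest.

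Amanitin embryos at 6 hpf were close to 2 hpf embryos in the middle of the list, and single members departed in both directions. By the authors' deposited table, 10 of 79 tested members rose, 24 fell and 45 were not called, where 22.2% of all tested genes rose and 44.1% fell (66.3% either way). The median member stood at -0.045 and the median of all 14463 rows considered at -0.34. At least 2-fold lower were 5 members, against 28.3% of all rows, and 0 were 2-fold higher, against 5.5%. As a share of the 2 hpf value the median member held 96.9%, with 10% of members below 56.5% and 10% above 131%. Centred on the median gene the median turned to 0.29. Above 0 then lay 55 of 79 members and 50% of all rows, against 36 members and 37.4% of all rows as deposited. The direction of the whole list thus depended on the scaling. When centred, 4 members were 2-fold higher and 1 was 2-fold lower, and the shares of all rows at that scaling were not computed. The groups differ in both age and treatment, and this comparison shares its amanitin group with the previous one and its 2 hpf group with the first.

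The members that rose included rpl12, rpl18, rpl23, rpl28, rplp2l, rps13, rps14, rps18 and rps28. The largest ratios were those of rpl12 (0.95), rpl28 (0.85), rps14 (0.78) and rpl18 (0.69), each with q = 0.000123 in the authors' deposited table. The gene rpl28, whose protein has no counterpart in budding yeast, held 82.6 FPKM at 2 hpf and 149 with amanitin, against 215 (control 6 hpf), 262 (control B), 223 (miR-430 MO) and 192 (CNOT7-DN). The gene rpl18 held 211 FPKM at 2 hpf and 340 with amanitin, against 313 (control 6 hpf), 336 (control B), 342 (miR-430 MO) and 269 (CNOT7-DN). For rpl28 amanitin lay between 2 hpf and the 6 hpf controls, and for rpl18 it lay at the level of control B.

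The members that fell were led by rplp2, rpl22, rpl7 and rpl19. The gene rplp2 (ENSDARG00000022833, chromosome 6, 49454475 to 49456852 on Zv9) held 23.3 FPKM at 2 hpf and 4.09 with amanitin, against 27.4 (control 6 hpf), 26 (control B), 28.2 (miR-430 MO) and 25.2 (CNOT7-DN). The gene rpl22, known in mice for a part in T cell development, held 129 FPKM at 2 hpf and 53.6 with amanitin, against 214 (control 6 hpf), 210 (control B), 205 (miR-430 MO) and 213 (CNOT7-DN). The gene rpl7 held 180 FPKM at 2 hpf and 87.1 with amanitin, against 308 (control 6 hpf), 309 (control B), 299 (miR-430 MO) and 272 (CNOT7-DN). All 3 had their lowest value in amanitin. The log2 ratios to 2 hpf were -2.26 for rplp2, -1.25 for rpl22, -1.04 for rpl7 and -1.01 for rpl19, each with q = 0.000123 in the authors' deposited table. Among abundant members that were not called were RPL29, at 437 and 527 FPKM (the authors' deposited table gives q = 0.0852), rps20, at 397 and 477 (q = 0.0566), and rpl32, at 351 and 412 (q = 0.0995).

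**Figure D4:**
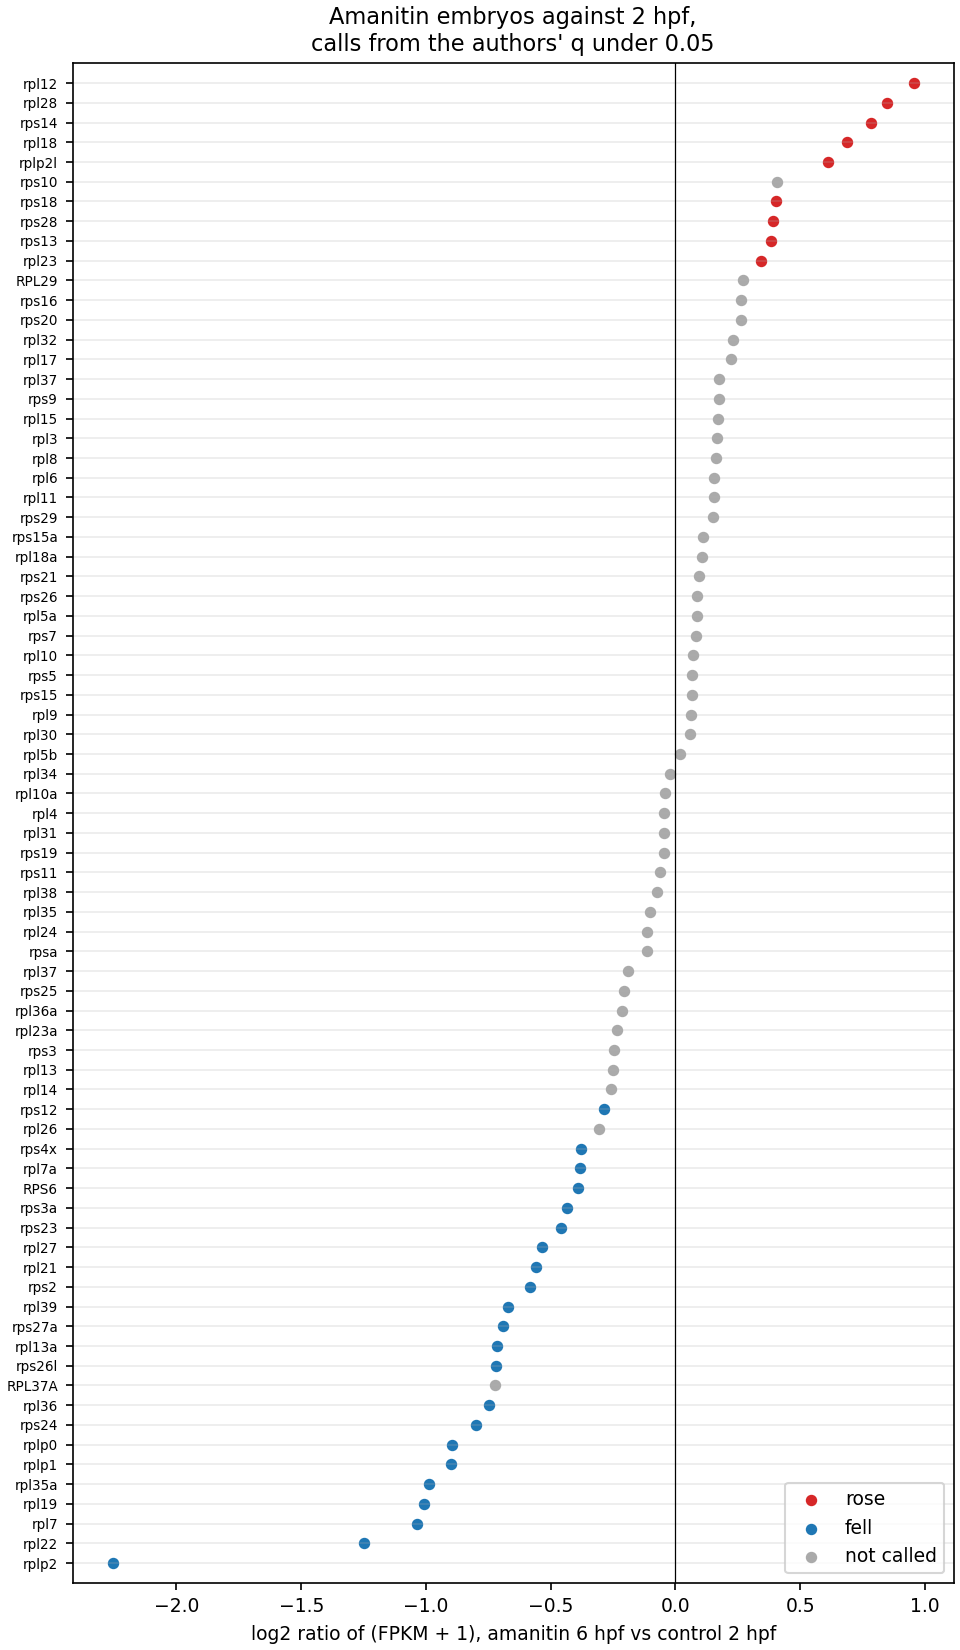
Log2 ratio of (FPKM + 1) of amanitin at 6 hpf to control 2 hpf for tested ribosomal protein rows described here, sorted, with colours for the calls at q under 0.05 in the authors' deposited table. Rows that rose reach 0.95 (rpl12) and rows that fell reach -2.26 (rplp2). The 2 rpl37 rows carry the same label.

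The proteins of the stalk, where elongation factors dock, were encoded by genes that went different ways. The gene rplp0, which anchors the stalk, held 184 FPKM at 2 hpf and 98.3 with amanitin, against 360 (control 6 hpf), 363 (control B), 352 (miR-430 MO) and 351 (CNOT7-DN). The gene rplp2l held 157 FPKM at 2 hpf and 241 with amanitin, against 382 (control 6 hpf), 364 (control B), 398 (miR-430 MO) and 370 (CNOT7-DN). Against 2 hpf, amanitin embryos were lower in rplp0 (-0.90), rplp1 (-0.90) and rplp2 (-2.26) and higher in rplp2l (0.61), each with q of at most 0.000347 in the authors' deposited table. In every group rplp2l held more FPKM than rplp2.

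The genes rpl5a, rpl5b and rpl11 encode the proteins that carry 5S ribosomal RNA and in mammals also bind the p53 regulator Mdm2. The gene rpl11 held 275 FPKM at 2 hpf and 306 with amanitin, against 467 (control 6 hpf), 446 (control B), 496 (miR-430 MO) and 405 (CNOT7-DN). RPS6, the protein phosphorylated by S6 kinases, had 179 FPKM at 2 hpf and 136 with amanitin, against 383 (control 6 hpf), 397 (control B), 363 (miR-430 MO) and 336 (CNOT7-DN). Against 2 hpf RPS6 fell in amanitin by 0.39 (log2; q = 0.00849 in the authors' deposited table), while rpl11 was at 0.15 (q = 0.273). The gene rps27a, made as a fusion with ubiquitin, held 249 FPKM at 2 hpf and 154 with amanitin, against 399 (control 6 hpf), 408 (control B), 366 (miR-430 MO) and 352 (CNOT7-DN). The gene rpsa, also known as the laminin receptor precursor, held 286 and 264 FPKM in 2 hpf and amanitin embryos, against 445, 455, 432 and 428 in the same order of groups.

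Gene copies with rows of their own were compared side by side. The rpl5 copies stood at different levels, and rpl5b was higher in all 6 groups. The gene rpl5a held 38.1 FPKM at 2 hpf and 40.5 with amanitin, against 103 (control 6 hpf), 117 (control B), 105 (miR-430 MO) and 85.4 (CNOT7-DN). The gene rpl5b held 279 FPKM at 2 hpf and 282 with amanitin, against 376 (control 6 hpf), 375 (control B), 384 (miR-430 MO) and 320 (CNOT7-DN). The log2 ratio of 6 to 2 hpf was 1.41 for rpl5a and 0.43 for rpl5b, and with amanitin they kept 34.7% and 75.1% of their FPKM in control B. A similar contrast stood between rps26l (log2 ratios of 1.68 and, to control B, -2.24) and rps26 (0.55 and -0.21). The gene rps26 held 193 FPKM at 2 hpf and 205 with amanitin, against 284 (control 6 hpf), 237 (control B), 317 (miR-430 MO) and 262 (CNOT7-DN), and rps26l held 63.1 and 38 against 205, 183, 218 and 177 in the same order. In the rpl5 and rps26 pairs the copy with less RNA at 2 hpf had the larger ratio to 6 hpf and the lower one in amanitin. The stalk pair differed from this, since rplp2, with less RNA at 2 hpf than rplp2l, had the smaller ratio to 6 hpf (0.23 against 1.27) and also the lower one in amanitin (-2.41 against -0.59). The rows named rpl37 had ratios to 6 hpf of -0.14 for the lower row on chromosome 2 and 1.58 for the row on chromosome 21. The reference list names the chromosome 2 row COA1, so these rows are not shown to be copies of a ribosomal protein gene. The differences between copies were not tested, and reads common to both copies could have been assigned to either.

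**Figure D5:**
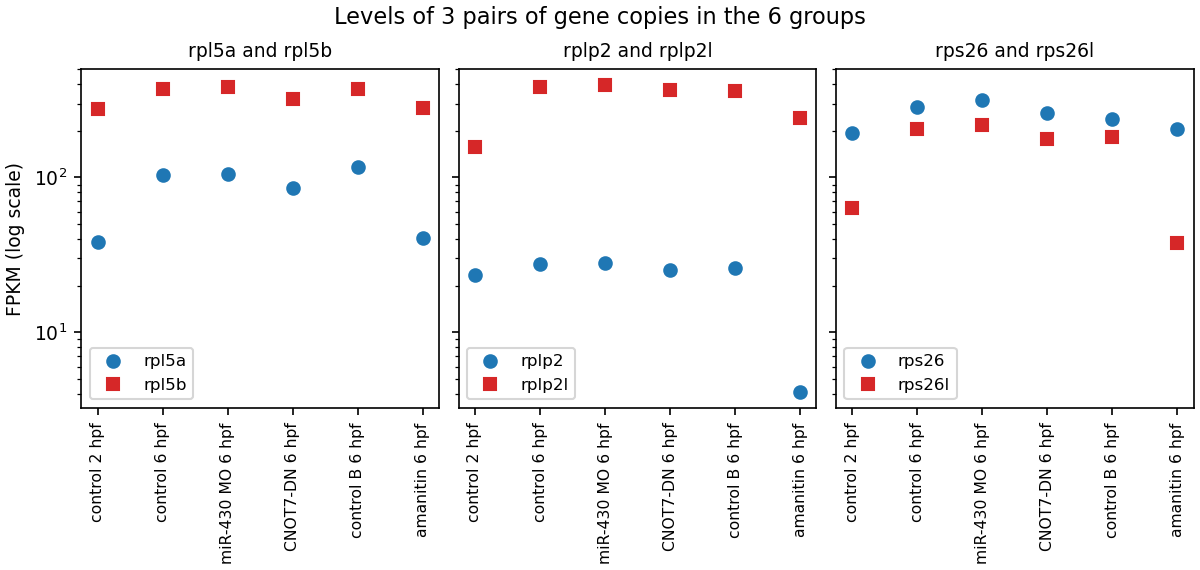
FPKM (log scale) of 3 pairs of ribosomal protein gene copies in the 6 groups, with 1 point per group. The copies of rpl5 and of rps26 lie closer together in the 6 hpf controls than at 2 hpf or with amanitin, and rplp2 is at 4.09 FPKM with amanitin.

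With miR-430 blocked, ribosomal protein mRNAs stood close to control 6 hpf. In the authors' deposited table, made with Cuffdiff, 0 of 78 tested members were called, and 0 had an unadjusted p under 0.05, where 25.5% of all tested genes were called (9.41% higher and 16.1% lower) and 35.8% had such a p. The median member stood at -0.011 and the median of the 15611 rows considered at -0.12. The direction turned with the scaling, since 33 of 79 members lay above 0 as deposited, 48 with equal sums and 70 when centred on the median gene. Of all rows considered, 37.9%, 41% and 50% lay above 0 at these scalings. The log2 ratios of the 79 members considered ran from -0.28 to 0.16, with a 25th percentile of -0.060 and a 75th of 0.043. No member was 2-fold apart, where 2.67% of all rows were higher and 2.26% lower. Among the most abundant were RPL29 at 0.053 (q = 0.829 in the authors' deposited table) and rps14 at 0.090 (q = 0.64).

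CNOT7-DN embryos had slightly lower values throughout the list, with no member called. Cuffdiff gave 0 calls among 78 tested members in the authors' deposited table, where 14.1% of all tested genes were called (10.1% higher and 4% lower), and 5 members (6.41%) had an unadjusted p under 0.05, against 25.7% of all tested genes. All 79 members considered lay below control 6 hpf, with a median of -0.18 and quartiles of -0.21 and -0.14, while 45.4% of all 15627 rows considered lay below 0. The member left out stood under 1 FPKM in both groups. After rescaling to equal sums 78 of the 79 lay below 0, against 42.7% of all rows. Centred on the median gene all 79 did, against 50% of all rows. Between the 6 hpf controls, rescaling to equal sums put 67 of 80 members higher in control B, with a median of 0.10. The cnot7 row held 1.26% of all FPKM in this group, and its part in the result was not tested. Set against control B, 75 of 80 rows were lower in CNOT7-DN, and against miR-430 MO 78 of 80. The shares of all rows lower in these 2 comparisons were not computed, so the counts are not shown to be particular to the members. Among the 5 members with an unadjusted p under 0.05 were rpl5a (-0.27), rps2 (-0.27), rps9 (-0.26) and rpl5b (-0.23). The lowest q among members was 0.0896 in the authors' deposited table. RPL29 stood at -0.068 (q = 0.814 in the authors' deposited table) and rps14 at -0.18 (q = 0.368). At least 2-fold lower was only the second rps20 row, which was not tested, against 1.28% of all rows, and 1.52% of all rows were 2-fold higher. The miR-430 MO and CNOT7-DN comparisons share control 6 hpf, and whether the 2 treatments differ in these genes was not tested.

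The 6 hpf controls are control embryos of 1 stage in separate groups. Control B against control 6 hpf had a median of -0.0042 over the 80 members, and the SD of the log2 ratios was 0.11 over the 78 rows at 10 FPKM or more in both. Only the second rps20 row was 2-fold apart, with 23.2 FPKM for control 6 hpf and 0 for control B, where 2.34% of all rows were 2-fold higher and 1.57% lower. At 5 FPKM or more, the members highest in control B relative to control 6 hpf were rpl35 (344 FPKM, and 424 for control B), rpl28 (215 and 262) and rpl17 (281 and 336). The lowest, beside that rps20 row, were rps26 (284 and 237) and RPL37A (441 and 377). Of the 80 rows 36 lay higher and 44 lower in control B, and after rescaling to equal sums 67 lay higher. Of all rows considered, 45.5% lay higher as deposited and 55.2% with equal sums. The controls were not tested against each other.

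The members were spread over 24 chromosomes, with at most 8 on 1 of them (chromosome 7). Pairs of neighbours under 50000 bases apart were rpl3 with rpl27 on chromosome 3 and rplp2 with rps26l on chromosome 6. Small nucleolar RNAs (snoRNAs), which guide the modification of ribosomal RNA and are often made from introns of ribosomal protein genes, shared a locus of the table with 25 of 80 members (31.2%), against 0.399% of the 32337 rows that are not snoRNAs. These loci held 62 of the 234 snoRNA rows. Of the 62, 37 were listed at 0 FPKM at 2 hpf and 30 in amanitin, against 10 in control 6 hpf and 9 in each of miR-430 MO, CNOT7-DN and control B. Their median FPKM was 0 at 2 hpf, 179 in control 6 hpf, 187 in control B and 3.82 in amanitin. The snoRNA rows at other loci were not counted in this way, so these values are not shown to be particular to the members' loci. In the authors' deposited table Cuffdiff called 0 of 43 tested snoRNA rows both from 2 to 6 hpf and with amanitin against control B. Of all tested genes 72.5% and 70.8% were called there. Of the 43, 0 had an unadjusted p under 0.05 in either comparison. The number of fragments behind these rows is unknown. Members with a snoRNA row at their locus had a median log2 ratio of 0.93 from 2 to 6 hpf and -1.10 with amanitin against control B, and members without one had 1.01 and -1.07.

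Ribosomal proteins outside the naming rule, together with related genes such as rpl7l1, were measured on 9 rows. By the authors' deposited table, 7 of them rose and 1 fell from 2 to 6 hpf, and 7 fell and 1 rose with amanitin against control B, with medians of 0.93 and -1.53. Of all tested genes, 20.8% rose and 51.7% fell in the first comparison, and 29.2% fell and 41.6% rose in the second. With miR-430 MO 1 of the 9 rose and 1 fell, where 25.5% of all tested genes were called. In CNOT7-DN 1 fell, where 14.1% of all tested genes were called. The copies faua and faub, fusions of a ubiquitin-like domain with a small subunit protein, went opposite ways from 2 to 6 hpf, with 33.9 and 112 FPKM for faua (q = 0.0001 in the authors' deposited table) and 109 and 84.9 for faub (q = 0.00873). A row named rps27.2 (ENSDARG00000090186) was the only one of the 9 called in CNOT7-DN, and it held 130.1 FPKM in control 6 hpf, 284 in miR-430 MO and 54.8 in CNOT7-DN. It rose with miR-430 MO (q = 0.000589 in the authors' deposited table) and fell with CNOT7-DN (q = 0.000996). The other row of that symbol (ENSDARG00000055475) held 273, 260 and 228 FPKM in the same groups. That row was called in neither comparison (q = 0.819 and 0.308 in the authors' deposited table). Reads could have been split between the 2 rows. The related gene rpl7l1 fell with miR-430 MO, from 182 to 119 FPKM (the authors' deposited table gives q = 0.000589). These genes were named after their values were seen.

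Translation elongation factors and other genes listed by name as having TOP mRNAs were called in both directions. Their TOP motifs were not checked. The gene npm1a stands both in this list and among the ribosome biogenesis factors below. It fell with miR-430 MO (q = 0.00621 in the authors' deposited table) and is counted in both. Of 18 tested, 11 rose and 3 fell from 2 to 6 hpf, with a median of 0.69, and 3 rose and 11 fell with amanitin against control B, with a median of -0.62, by the calls of the authors' deposited table. Of all tested genes, 20.8% rose and 51.7% fell in the first comparison, and 41.6% rose and 29.2% fell in the second. With miR-430 MO 1 rose and 2 fell, where 9.41% and 16.1% of all tested genes did. In CNOT7-DN Cuffdiff called 0 of the 18, with a median of -0.15, where 14.1% of all tested genes were called. An unadjusted p under 0.05 was given for 2, against 25.7% of all tested genes. The elongation factor gene eef1a1l1 held 518 FPKM at 2 hpf and 996 with amanitin, against 4214 (control 6 hpf), 4689 (control B), 4183 (miR-430 MO) and 3579 (CNOT7-DN). The elongation factor gene eef1g fell from 291 FPKM at 2 hpf to 207 at 6 hpf (q = 0.0001 in the authors' deposited table).

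Ribosome biogenesis factors, which process ribosomal RNA and assemble the subunits, went both ways. Of 101 tested, 33 rose and 36 fell from 2 to 6 hpf in the authors' deposited table, with a median of -0.020, and 15 rose and 60 fell with amanitin against control B, with a median of -0.60. The shares of all tested genes were those given for the elongation factors. With miR-430 MO 0 rose and 60 fell, with a median of -0.48, while 9.41% of all tested genes rose and 16.1% fell. In CNOT7-DN 3 rose and 6 fell, with a median of -0.10, while 10.1% of all tested genes rose and 4% fell. The gene nop56, a core protein of box C/D snoRNPs, held 397 FPKM in control 6 hpf and 291 in miR-430 MO (q = 0.00304 in the authors' deposited table). The pseudouridine synthase gene dkc1 held 266 and 195.5 FPKM (the authors' deposited table gives q = 0.000589). Between the 2 lists the difference in response to miR-430 MO was not tested.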

How the data were processed

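The submitters' processing notes name TopHat 1.4.0, Cuffdiff 2.1.1 and the build Zv9 (danRer7). The deposited table holds FPKM of both groups for 5 comparisons, per the file headers, and the authors' p-value, q-value and test status. How libraries were scaled, whether strand was used, the annotation release and the depth are unknown here. Nothing says that the triplicates came from different clutches, so the q-values may measure technical spread only.

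From the FPKM, log2 ratios of (FPKM + 1) were computed, with rows considered at 1 FPKM or more in either group. Changes were called from the deposited q under 0.05 at a test status of OK, and no p-value was computed here. The smallest q from Cuffdiff over all tested genes was 0.0001 from 2 to 6 hpf, 0.000589 with miR-430 MO and 0.000996 in CNOT7-DN. For amanitin it was 0.000105 against control B and 0.000123 against 2 hpf. Values at these limits rank neither genes nor comparisons. A group's FPKM was taken from the first comparison that holds it, which left 4 columns of repeated values unused. For named genes the rule took the 4 largest called rises and falls per comparison at 5 FPKM or more (3 between the controls), calls against the majority, uncalled members, the highest and lowest levels, stalk and 5S proteins and gene copies. Members and lists were chosen with earlier results of these data known. The ratio calculation was checked on control 6 hpf values multiplied by set factors without noise, which checks its arithmetic only. Some genes that the rule names are not reported here. Sequences are not used here. Loci are as in the table, where 31 members share theirs with another row. Python 3.11.15, numpy 2.4.6, pandas 2.3.3, scipy 1.17.1 and matplotlib 3.10.9 were used.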

Additional observations from a re-analysis of the deposited data

How the results depend on the processing

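Of 130 recomputed values, 106 stayed within 1.5 times a count or within the SD of 0.11 between the controls, 22 moved and 2 reversed. That SD is of single rows, so it is a lenient limit for a median over the list. By it, the median between the controls counted as unchanged when it went from -0.0042 to 0.10 with equal sums. Other pseudocounts and FPKM minima could hardly move values of members this abundant, and they make up many of the 106. The total of 106 is therefore no measure of stability. With equal sums 4 values moved and 8 stayed, and centred on the median gene 3 moved, 2 reversed and 7 stayed. From 2 to 6 hpf the median of 0.95 became 0.45 with equal sums, 1.42 centred on the median gene and 1.12 for the 49 members that share no locus, and the 36 members 2-fold apart became 8, 69 and, at a fold of 1.5, 63. Of these 49, 47 were called from 2 to 6 hpf, and with amanitin against control B 45 were called and 29 were 2-fold lower; these counts rest on fewer rows. With amanitin against control B the median of -1.09 became -0.73 with equal sums and -1.21 centred, and 24 members were 2-fold lower with equal sums. Against 2 hpf the median of -0.045 reversed to 0.29 when centred; with a pseudocount of 5, 3 members were 2-fold apart, at a fold of 1.5 there were 21, and 20 calls were at least 1.5-fold. In miR-430 MO the median of -0.011 reversed to 0.11 when centred and was 0.024 with equal sums, and 1 member was 2-fold apart from control B. In CNOT7-DN the count of 1 became 0 for symbols on 1 row, for unshared loci and against control B. Between the controls the count of 1 became 0 for the first 2 of these and 2 with a pseudocount of 0.1. No paired analysis was possible because the table holds 1 value per group, which also leaves no replicate to leave out. Depth is unknown, so the precision of low rows is unknown too. The shares of all rows 2-fold apart or called were not computed for the changed settings.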
